A study of Mus musculus with 64 samples.

Results

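Solute carriers are the large superfamily of membrane proteins that move amino acids, sugars, ions, metals, nucleosides, vitamins and other small molecules without using ATP directly. Here 42 solute carrier genes were followed through mouse preimplantation development, out of 3089 genes with a probe that the platform annotation pairs with a single gene symbol. A gene was a member if its symbol began with Slc and a digit or with Slco, the mitochondrial Slc25 carriers left out. No filter on low values was set, so all 42 were tested. They had 55 probes, and the probe with the highest mean over all 64 arrays stood for each gene. By family number, 10 members carry amino acids, 7 nucleosides or nucleotide sugars, 6 ions, 5 vitamins or choline, 4 metals, 4 sugars, 2 organic acids and 2 peptides, drugs or organic ions. The vesicular amine carrier Slc18a1 and the heme carrier Slc48a1 stand alone. The family sort puts Slc5a7 among the sugar carriers, although it is the high-affinity choline transporter. By number alone it also counts Slc35f1 and Slc35f2 among the carriers of nucleosides or nucleotide sugars. Not every member works at the cell surface: Slc35a1 and Slc35b2 are known from the Golgi apparatus, and Slc18a1 from secretory vesicles.

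The egg and early embryo feed on pyruvate and amino acids, and glucose use rises towards the blastocyst, in which the facilitative glucose carriers Slc2a1 (GLUT1) and Slc2a3 (GLUT3) are well known. Amino acid, taurine and ion carriers also control cell volume in the embryo, and zinc carriers take part in oocyte maturation and egg activation. RNAs stored in the egg are cleared from fertilization on, and the embryo's own genome becomes active mainly at the 2-cell stage in the mouse.

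Total RNA of mouse (Mus musculus) embryos was hybridised on 2-colour arrays against a common reference. In the stage set, 28 arrays held 7 stages with 4 arrays each, from the unfertilized egg through the fertilized egg, the 2-cell, 4-cell and 8-cell embryo and the morula to the blastocyst. In the treatment set, 36 arrays held 12 groups of 3. Control embryos without treatment were taken at 4 times, 21, 32, 43 and 54 h. AM embryos were taken at the last 3 of these times, AC and DMSO embryos at 32 h and again at 43 h, and CHX embryos once, at 43 h. By the labels the first 2 times are 1-cell and the last 2 are 2-cell embryos, while strain, dose and zero hour are not named. The abbreviations are not spelled out there and were taken, from general knowledge, to mean α-amanitin, which blocks RNA polymerase II, aphidicolin, which blocks DNA replication, cycloheximide, which blocks translation, and dimethyl sulfoxide, the usual solvent of aphidicolin. The labels do not say whether replicates came from separate collections of embryos or how many embryos were pooled, so p-values measure the spread between these samples, which may be technical.

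Every level below is a log2 ratio of embryo to reference for 1 probe, so a level of 1 probe is not set against that of another. Ratios beyond 100-fold were held at a limit of 6.64 on this scale, which 3 members reached on some array. The direction is likely, not settled: all 5 measured oocyte genes (Zp2, Bmp15, Kit, Btg4, Dppa3) lay above the reference in unfertilized eggs and below their egg level in blastocysts. With the opposite sign all rises would be falls. Of the trophectoderm markers only Hand1 was measured, with stage means of 2.09 in unfertilized eggs, 4.37 at the 2-cell stage and 2.55 in blastocysts. The inner cell mass marker Nanog was at 0.77 in unfertilized eggs and 1.43 in blastocysts, and Gata4 was below the reference in blastocysts, at -0.55. Of the cumulus markers only Cyp11a1 was measured, between -0.30 and 0.83 in unfertilized eggs and between 0.04 and 0.48 in blastocysts, and no sperm marker was measured.

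The stage arrays form a pair of subsets that no label names, seen in earlier work on these data. Subset 2 holds unfertilized egg 4, morulae 3 and 4 and all 8-cell and blastocyst arrays, with 69 to 312 probes at the upper limit per array. Subset 1 holds the other 17 arrays, with 322 to 372. The 4-cell and 8-cell stages lie in different subsets, so stage and subset cannot be told apart there except through the divided morulae and eggs. Stage results are therefore given also with the subset as a block or within a subset.

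The promoters of 4 members are shown as examples of patterns described below, where the limits of each call are given. Slc7a10 stands for the loss of egg RNA, Slc28a2 for the high values of 8-cell arrays, and Slc2a1 and Slc5a7 for a difference under AM. Each runs 5′ to 3′ from 250 bases before to 50 bases after 1 start annotated for the gene in RefSeq (build GRCm38.p6), which need not be its outermost start. The gene itself begins at 35186095 for Slc7a10, so that window lies wholly inside the gene, and at 122426357 for Slc28a2, inside that window. Capitals mark matches on either strand to 3 motifs. The TATA box was searched as TATAAA, which 13.6% of all 32851 promoters in the table hold. The CAAT box was searched as CCAAT (37.4% of promoters) and the GC box as GGGCGG (35.7%). The motifs TAATTG (8.0% of promoters) and, for the E-box, CACGTG (7.15%) were searched too and are in none of these 4 windows. The promoters are those at chr7:35186135-35186434 on the plus strand for Slc7a10, chr2:122426185-122426484 on the plus strand for Slc28a2, chr4:119108495-119108794 on the plus strand for Slc2a1 and chr17:54298985-54299284 on the minus strand for Slc5a7.
Slc7a10: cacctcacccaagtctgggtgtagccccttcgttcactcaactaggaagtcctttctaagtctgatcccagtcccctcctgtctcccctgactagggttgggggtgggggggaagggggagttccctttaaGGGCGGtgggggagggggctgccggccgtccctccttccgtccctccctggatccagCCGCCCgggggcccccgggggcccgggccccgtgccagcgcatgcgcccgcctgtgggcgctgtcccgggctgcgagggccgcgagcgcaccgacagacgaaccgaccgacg
Slc28a2: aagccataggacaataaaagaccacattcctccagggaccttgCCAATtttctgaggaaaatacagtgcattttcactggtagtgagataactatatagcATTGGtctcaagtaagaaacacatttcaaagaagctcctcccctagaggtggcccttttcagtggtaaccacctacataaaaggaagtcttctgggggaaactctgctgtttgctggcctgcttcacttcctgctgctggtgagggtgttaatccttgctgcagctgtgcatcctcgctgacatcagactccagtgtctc
Slc2a1: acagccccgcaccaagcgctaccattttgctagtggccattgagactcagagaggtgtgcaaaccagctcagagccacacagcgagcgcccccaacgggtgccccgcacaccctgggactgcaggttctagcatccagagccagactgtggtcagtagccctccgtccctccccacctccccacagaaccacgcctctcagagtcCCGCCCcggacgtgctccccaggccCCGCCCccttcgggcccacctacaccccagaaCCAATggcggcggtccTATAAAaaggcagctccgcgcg
Slc5a7: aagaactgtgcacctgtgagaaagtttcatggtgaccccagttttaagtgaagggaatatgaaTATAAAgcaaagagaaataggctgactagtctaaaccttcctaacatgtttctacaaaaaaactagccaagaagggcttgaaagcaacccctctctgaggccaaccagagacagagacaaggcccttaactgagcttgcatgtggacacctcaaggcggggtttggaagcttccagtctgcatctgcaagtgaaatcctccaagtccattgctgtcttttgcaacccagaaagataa
The Slc7a10 window held 2 GGGCGG matches in 70.7% G and C. The Slc28a2 window held 2 CCAAT matches in 46.7% G and C. The Slc2a1 window held 1 TATAAA, 1 CCAAT and 2 GGGCGG matches in 65.3% G and C, and its TATAAA and CCAAT matches lie after the start, in the last 50 bases. The Slc5a7 window held 1 TATAAA match in 44.7% G and C, near the 5′ end and far before the start. The median promoter has 52.7% G and C. A match is a description of letters, not a site shown to be used.

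Over the 7 stages, 27 of the 42 carriers differed by limma's F test with Benjamini-Hochberg adjustment over all probes, where 64.3% of all probes did. With the array subset as a block 20 carriers did, beside 40.9% of all probes. By the stage of their highest mean, 9 of the 27 were maternal (highest in unfertilized or fertilized eggs), 15 were cleavage-stage carriers (2-cell to 8-cell) and 3 were late (morula or blastocyst). The heat map of stage means shows the steep fall of the maternal carriers and the 8-cell column, in which 11 of the 15 cleavage carriers have their highest mean, a number that was 6 with the subset as a block. Of the 27 carriers 18 also passed the F test with the block, namely all 9 maternal, 7 cleavage and 2 late carriers. By their stage means from the block fit the 27 fell into classes of 10, 13 and 4 genes: Slc2a1 moved from maternal to late, and Slc35a1 and Slc4a8 from cleavage to maternal.

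**Figure D1:**
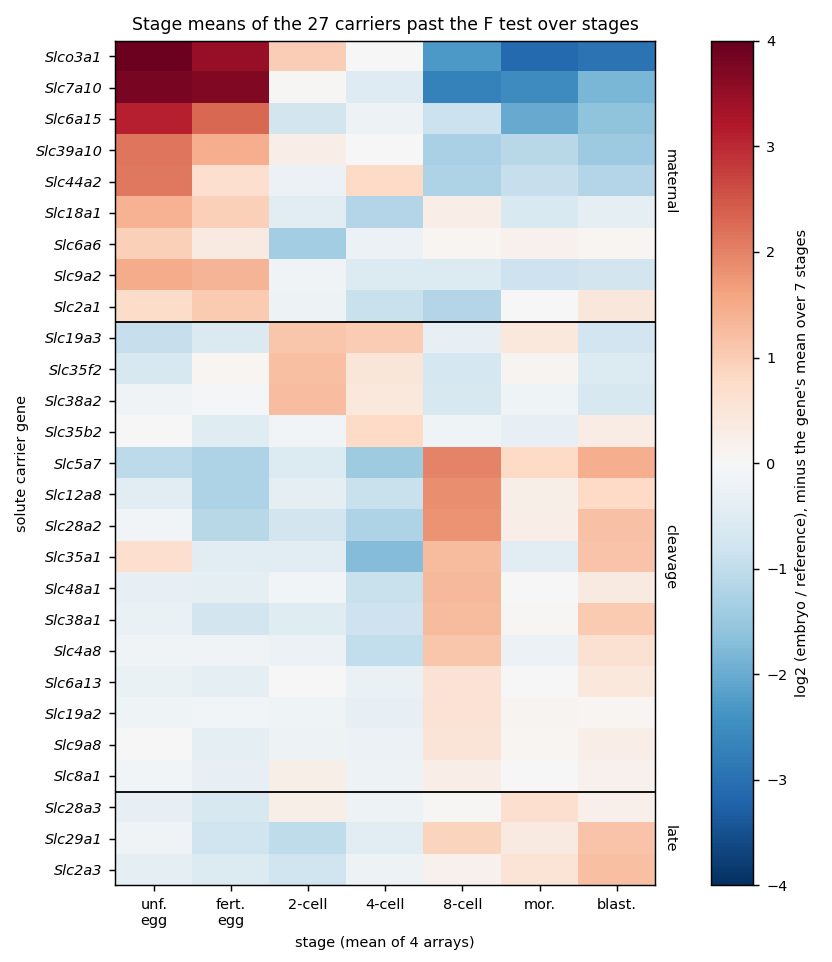
Stage means (columns, 4 arrays each) of the 27 carriers past the F test, in log2 embryo over reference minus each gene's own mean over the 7 stages, with red above and blue below that mean and black lines between the classes. Slco3a1, Slc7a10 and Slc6a15 lose the most from egg to blastocyst, and 11 cleavage carriers have their highest mean in the 8-cell column (6 when the array subset is a block).

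Of the 10 amino acid carriers 6 passed the F test, and 3 of those were maternal. Slc7a10 (Asc-1, an exchanger of small neutral amino acids) was at 5.93, 6.08, 5.93 and 4.06 in unfertilized eggs and at 6.03, 4.49, 5.25 and 5.79 in fertilized eggs. It was at 0.19, 2.45, 3.23 and 1.13 in 2-cell embryos, 0.69, 1.66, 1.33 and 1.03 in 4-cell embryos and -1.07, -0.79, -0.81 and -1.31 in 8-cell embryos. Morulae gave -0.28, -0.96, -0.68 and -1.34 and blastocysts 0.20, -0.08, -0.12 and -0.52. No egg array of either kind overlapped any later stage, and the fall from fertilized egg to 2-cell embryo was 12.5-fold (log2 -3.64 ± 0.48 SE, adjusted p = 2.1e-06). The blastocyst was 49.6-fold below the unfertilized egg (log2 -5.63 ± 0.48, adjusted p = 5.88e-10), and the difference from the egg array of its own subset was -4.19. In whole embryos, fewer cells that hold an RNA and less of it per cell cannot be told apart. A further Slc7a10 probe behaved otherwise, with its highest mean at the 2-cell stage and a 2-cell difference of 0.73 (adjusted p = 0.17). On that probe blastocysts were below unfertilized eggs by a smaller log2 difference of -1.31 (adjusted p = 0.0105).

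Slc6a15 (B0AT2, a sodium-coupled carrier of branched-chain amino acids and proline) read 4.28, 4.55, 4.75 and 3.44 in unfertilized eggs and 3.69, 3.17, 3.27 and 3.65 in fertilized eggs. The 2-cell embryos dropped to -0.21, 0.63, 0.97 and 0.32, and the 4-cell embryos read 0.65, 1.26, 0.88 and 0.98. Later values were -0.48, 0.86, 0.43 and 0.38 at the 8-cell stage, -1.23, -0.86, -0.94 and -0.44 in morulae and -0.45, -1.38, -0.03 and 0.06 in blastocysts. Every egg array lay above every later array. The 2-cell embryos were 8.11-fold below the fertilized eggs (log2 -3.02 ± 0.33, adjusted p = 1.03e-07). In the treatment set, after quantile normalization, Slc6a15 changed less. Its control arrays read 3.53, 3.92 and 3.58 at 32 h (1-cell), 3.14, 3.78 and 2.97 at 43 h (2-cell) and 2.525, 2.81 and 2.92 at 54 h (2-cell). Slc6a6, the taurine transporter, fell from 0.72, 1.17, 1.47 and 0.34 in unfertilized and 0.67, 0.20, 0.18 and 0.20 in fertilized eggs to -1.83, -1.83, -1.26 and -0.82 at the 2-cell stage, a 3.36-fold difference without overlap (adjusted p = 1.29e-05). It then rose 2.26-fold to the 4-cell stage (log2 1.17 ± 0.26, adjusted p = 0.00341), although the mean of its 3 probes did not pass there (adjusted p = 0.104).

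Slco3a1, an organic anion transporter of prostaglandins and thyroid hormone, had the widest range of all members. Its values were 3.71, 3.17, 3.43 and 2.49 in unfertilized eggs, 3.08, 2.71, 2.56 and 2.71 in fertilized eggs, -0.74, 0.27, 0.76 and 0.88 at the 2-cell stage and -0.70, -0.62, -0.89 and -0.58 at the 4-cell stage. From there it read -2.83, -2.80, -3.32 and -3.13 in 8-cell embryos, -4.24, -4.16, -3.10 and -3.79 in morulae and -4.12, -3.59, -3.39 and -3.61 in blastocysts. The egg, 4-cell and 8-cell arrays did not overlap one another. Blastocysts were 117-fold below unfertilized eggs (log2 -6.88 ± 0.30, adjusted p = 4.29e-15), and the difference from the 1 egg array of subset 2 was -6.17. A further Slco3a1 probe ranged over 0.85 between stage means and did not pass the F test (adjusted p = 0.0725), and the mean of both probes gave -3.86.

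Slc39a10 (ZIP10), one of the zinc importers of the mouse oocyte, was at 1.69, 1.71, 1.90 and 2.08 in unfertilized eggs and 1.85, 0.71, 0.71 and 1.35 in fertilized eggs. It read -0.19, 0.41, 0.18 and -0.49 at the 2-cell and -0.19, -0.37, -0.50 and -0.15 at the 4-cell stage. The late stages were lowest, at -1.54, -1.50, -2.04 and -1.34 in 8-cell embryos, -1.69, -1.10, -1.30 and -1.52 in morulae and -1.95, -1.71, -1.77 and -1.53 in blastocysts. The log2 difference from unfertilized egg to blastocyst was -3.59 ± 0.24 (adjusted p = 7.48e-12), and one of its 2 further probes fell too (log2 -3.28, adjusted p = 1.21e-12) while the other did not pass (-0.57, adjusted p = 0.322). The other 3 metal carriers, the zinc carriers Slc30a9, Slc39a8 and Slc39a9, did not pass the F test.

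Slc44a2, a choline transporter-like protein, was the carrier that already differed between fertilized and unfertilized eggs, where 0.766% of probes did. It read 1.93, 1.85, 1.77 and -0.13 in unfertilized eggs and 0.06, -0.74, 0.04 and 0.40 in fertilized eggs, so that array 4 of the unfertilized eggs, the one of subset 2, lay among the fertilized eggs. The difference was -1.42 ± 0.32 (adjusted p = 0.0351), kept its call in 3 of the 8 fits that left out 1 array (highest adjusted p = 0.146, without fertilized egg 2), and was -1.91 within subset 1 (adjusted p = 0.00117). Its later values were -1.01, -1.06, -0.89 and -0.99 at the 2-cell stage and -0.07, 0.08, 0.27 and -0.14 at the 4-cell stage, followed by -2.10, -1.90, -2.27 and -1.62 at the 8-cell stage, -1.63, -1.33, -1.62 and -2.12 in morulae and -2.21, -1.87, -1.90 and -1.69 in blastocysts. The 4-cell arrays stood above both neighbouring stages without overlap. Its fall at the 2-cell stage and rise at the 4-cell stage kept their calls in 3 and 2 of 8 such fits.

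Slc18a1 (VMAT1, a vesicular monoamine transporter) was at 3.03, 3.28, 3.27 and 2.37 in unfertilized and 2.94, 1.87, 2.39 and 2.95 in fertilized eggs, and at 1.28, 1.10, 1.33 and 0.84 in 2-cell and 0.40, 0.37, 0.41 and 0.43 in 4-cell embryos. It then read 1.70, 1.97, 1.99 and 1.79 at the 8-cell stage, 0.31, 0.83, 1.36 and 1.40 in morulae and 1.17, 1.02, 1.08 and 1.47 in blastocysts. Among the maternal genes it was the one that rose from the 4-cell to the 8-cell stage (log2 1.46, adjusted p = 9.39e-05, and 1.35 with the subset as a block, adjusted p = 0.0474). Its further probe had stage means that correlated at -0.09 with those of the first over 7 stages. Slc9a2 (NHE2, a sodium-proton exchanger) had 3.06, 2.13, 2.46 and 1.40 in unfertilized eggs and 0.80, 0.43, 1.01 and 0.28 in 2-cell embryos, and was 4.64-fold lower in blastocysts than in unfertilized eggs (adjusted p = 1.83e-05).

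**Figure D2:**
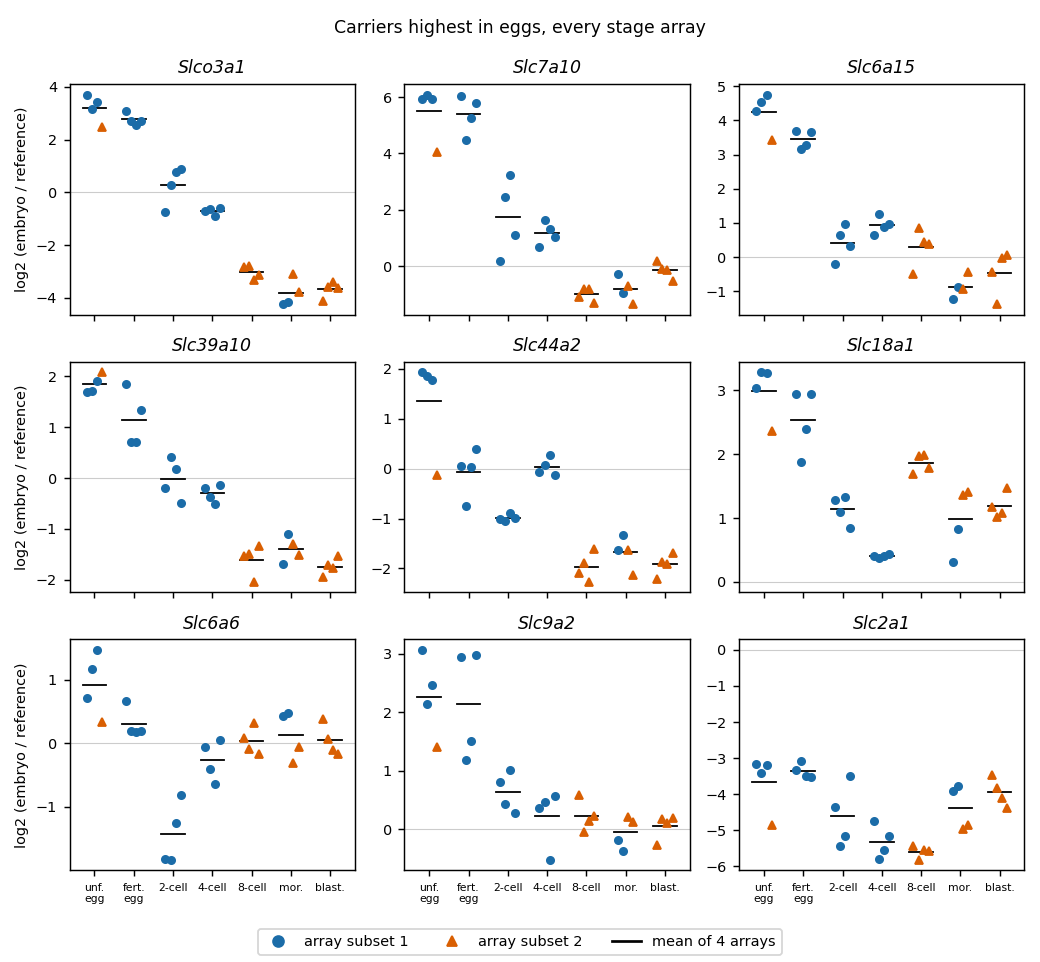
Log2 embryo over reference of the 9 maternal carriers on every stage array, with circles for array subset 1, triangles for array subset 2 and a line for the mean of 4 arrays. In every panel but that of Slc2a1 all egg values lie above all 2-cell values, and for Slc7a10, Slc44a2 and Slc2a1 the 1 unfertilized egg array of subset 2 lies well below the other 3.

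From the fertilized egg to the 2-cell embryo 12 carriers changed, 9 falling and 3 rising, and 27.4% of all probes did (12.9% falling and 14.5% rising). The 9 that fell were the 9 maternal carriers, a count that the definition of the class partly sets. Their median difference was -1.51, against 0.06 for all 42 carriers and 0.09 for all probes. The 3 that rose were Slc38a2 (SNAT2, a sodium-coupled carrier of glutamine and alanine) by 1.29 ± 0.38 (adjusted p = 0.0130, with overlapping arrays, and 0.0592 without 2-cell embryo 1), Slc35f2 by 1.11 ± 0.25 (adjusted p = 0.00156, or 0.375 after quantile normalization) and Slc8a1 (NCX1, the sodium-calcium exchanger) by 0.56 ± 0.18 (adjusted p = 0.0201, or 0.0747 without fertilized egg 1). Slc38a2 read -5.84, -5.11, -5.96 and -6.46 in fertilized eggs, not far above the lower limit of the scale. Among nucleoside and nucleotide sugar carriers none fell, and among metal carriers the 1 call was Slc39a10. From the 2-cell to the 4-cell stage, where 13.6% of probes were called, 4 carriers were: Slc6a6, Slc44a2 and Slc35b2 rose (9.58% of probes) and Slco3a1 fell (4.04%). The Slco3a1 call held in 2 of the 8 fits without 1 array (highest adjusted p = 0.0882, without 2-cell embryo 3). With the array subset as a block 9 carriers were called, beside 18.4% of probes.

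The widest ranges among the cleavage carriers belonged to genes with their highest mean at the 8-cell stage. Slc5a7, the choline transporter, was at -0.41, -0.13, 0.50 and 2.38 in unfertilized eggs, -0.22, 0.89, 0.79 and 0.11 in fertilized eggs, 1.69, 0.86, 0.15 and 1.61 in 2-cell embryos and 0.19, 0.10, 0.12 and 0.38 in 4-cell embryos. It read 3.70, 3.27, 3.69 and 3.70 in 8-cell embryos, 1.34, 1.49, 3.24 and 3.58 in morulae and 3.24, 2.91, 3.47 and 2.68 in blastocysts. Morulae 3 and 4 lay with the 8-cell and blastocyst arrays, and morulae 1 and 2 lay with the 2-cell arrays. Unfertilized egg 4 stood above the other 3 eggs in the same way.

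Slc28a2 (CNT2, a sodium-coupled carrier of purine nucleosides) showed the same division, with 1.86, 1.95, 2.06 and 3.74 in unfertilized eggs, 1.14, 0.71, 1.29 and 2.45 in fertilized eggs, 1.83, 1.81, 2.15 and 1.25 at the 2-cell stage and 1.20, 1.21, 1.61 and 1.00 at the 4-cell stage. Its 8-cell values were 4.25, 4.21, 4.63 and 4.05, its morula values 1.60, 1.89, 3.74 and 3.82 and its blastocyst values 3.59, 3.74, 3.84 and 3.47. Slc12a8, of the cation-chloride cotransporter family, was at 0.07, 0.50, -0.02 and 2.65 in unfertilized eggs, 0.13, -0.07, -0.78 and 0.71 in fertilized eggs, 1.14, 1.06, 1.10 and 0.17 at the 2-cell and 0.40, 0.34, 0.74 and -0.13 at the 4-cell stage. In both genes egg 4 and morulae 3 and 4, the arrays of subset 2, were above the other arrays of their stage.
Slc12a8 continued with 2.45, 3.54, 3.46 and 2.83 at the 8-cell stage, 0.56, 0.69, 2.49 and 2.14 in morulae and 2.17, 1.70, 1.77 and 2.46 in blastocysts. Slc35a1, the Golgi carrier of CMP-sialic acid, read 1.48, 1.77, 1.79 and 2.04 in unfertilized eggs, 0.35, 0.75, 0.74 and 0.77 in fertilized eggs, 1.33, 0.93, 0.24 and 0.25 at the 2-cell and -0.52, -0.83, -0.50 and -0.61 at the 4-cell stage. Its 8-cell values were 2.52, 2.04, 2.79 and 2.09, its morula values -0.85, -1.07, 2.42 and 2.17 and its blastocyst values 2.08, 2.58, 2.27 and 2.10. The subset 2 morulae of Slc35a1 exceeded those of subset 1 by 3.25 on average, more than the whole difference between 8-cell and 4-cell embryos (2.98).

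Between the 4-cell and the 8-cell stage, which lie in different subsets, 21 carriers differed, 14 higher and 7 lower, and 41.1% of all probes did (20.9% higher and 20.2% lower). Of the 14 that were higher at the 8-cell stage, 13 also had both subset 2 morulae above both subset 1 morulae, with a median gap of 1.32. Of the 7 that were lower, 2 had the subset 2 morulae above and 2 had them below, with a median gap of -0.40, whereas 27.8% of all probes had the subset 2 morulae above and 37.2% below. With the subset as a block 3 carriers remained called, beside 2.56% of probes: Slco3a1 fell by 2.35 (adjusted p = 0.00315), Slc39a10 fell by 1.43 (adjusted p = 0.0222) and Slc18a1 rose by 1.35. Slc5a7 then differed by 1.23 (adjusted p = 0.158), Slc28a2 by 1.10 (adjusted p = 0.147), Slc35a1 by 0.96 (adjusted p = 0.473) and Slc12a8 by 0.71 (adjusted p = 0.593), while the difference of the amino acid carrier Slc38a1 was 2.10 without the block and 0.08 with it. Further Slc38a1 probes gave -0.10 and -1.34 without the block (adjusted p = 0.821 and 0.177). Their stage means correlated at -0.57 and -0.73 with those of the first probe, and both were highest at the 2-cell stage. The other 8-cell calls upward were Slc48a1 (heme), Slc4a8 (a sodium-driven chloride-bicarbonate exchanger), Slc29a1, Slc16a3 (MCT4, lactate), Slc19a2 (thiamine), Slc6a13 (GABA), Slc9a8 (a sodium-proton exchanger) and Slc8a1. None of these 8 passed with the block. The Slc8a1 call was lost in every fit without 1 array (adjusted p up to 0.0852) and that of Slc16a3 in 6 of 8 (up to 0.132, without 4-cell embryo 2).

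**Figure D3:**
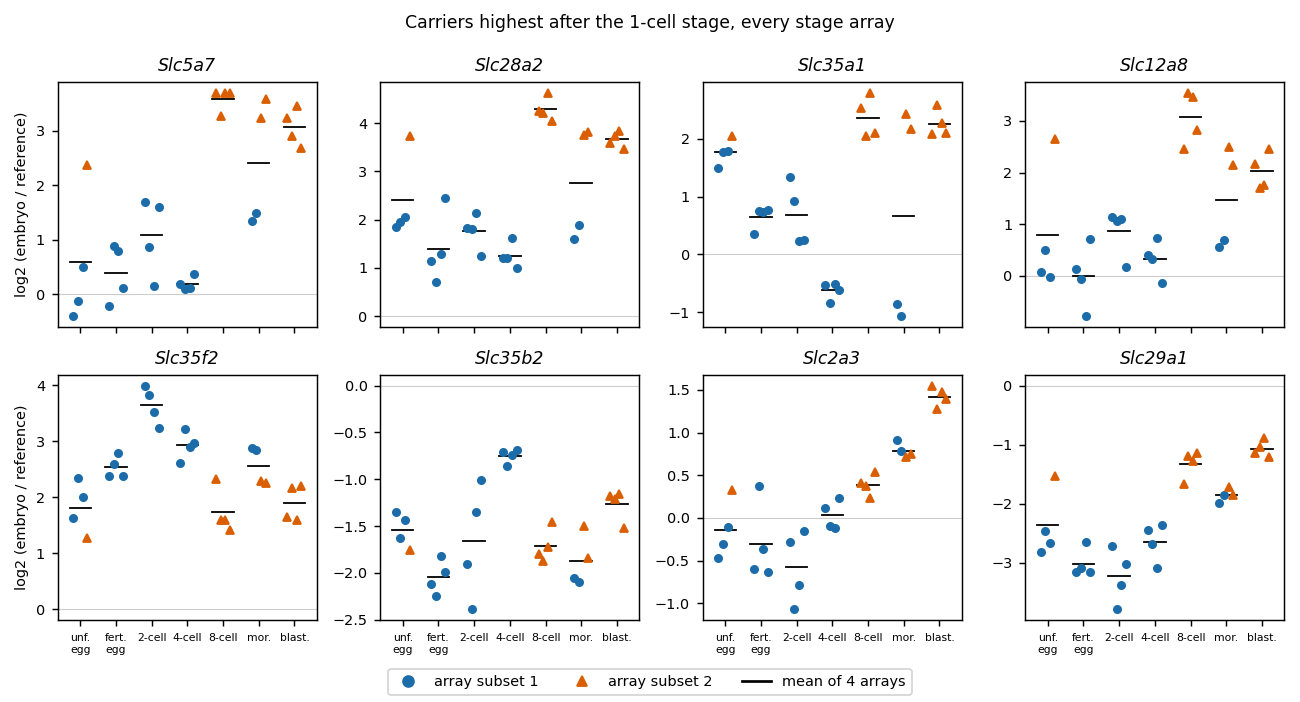
Log2 embryo over reference of 8 carriers on every stage array, with circles for array subset 1, triangles for array subset 2 and a line for the mean of 4 arrays. In Slc5a7, Slc28a2, Slc35a1 and Slc12a8 the morula arrays split by subset, while in Slc2a3 and Slc29a1 the 4 morula arrays lie together and below the blastocysts.

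The 4 carriers with their highest mean at the 2-cell or 4-cell stage were Slc35f2, Slc38a2, Slc19a3 and Slc35b2, and both stages lie wholly in subset 1. Slc35f2 was at 3.99, 3.83, 3.52 and 3.23 in 2-cell embryos against 2.38, 2.59, 2.79 and 2.39 in fertilized eggs, with no overlap. Slc35b2, the Golgi carrier of the sulfate donor PAPS, was highest at the 4-cell stage, at -0.71, -0.86, -0.74 and -0.68, against -1.90, -2.39, -1.35 and -1.01 at the 2-cell stage, a 1.89-fold rise (adjusted p = 0.00718). Slc35b2 was 2.18-fold lower in morulae than in 4-cell embryos (adjusted p = 0.00109), also within subset 1 (adjusted p = 0.0121). Slc19a3, a thiamine transporter, was at 4.31, 6.64, 5.51 and 3.02 in 2-cell embryos and 4.56, 1.87, 1.94 and 4.29 in fertilized eggs. Its arrays spread widely and overlapped, with 2-cell embryo 2 at the limit, and its F test had an adjusted p of 0.0433. In the comparison of morulae with 4-cell embryos 10 carriers were called beside 10.8% of probes, and within subset 1, with 2 morulae, the 4 called were Slco3a1 (-3.50), Slc6a15 (-1.99), Slc44a2 (-1.51) and Slc35b2 (-1.33), all lower in morulae, beside 5.19% of probes called and 3.2% lower.

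The glucose carriers Slc2a1 and Slc2a3 rose from the 8-cell embryo to the blastocyst. Slc2a3 (GLUT3) was at -0.47, -0.30, -0.11 and 0.32 in unfertilized eggs, 0.41, 0.37, 0.24 and 0.54 in 8-cell embryos, 0.91, 0.79, 0.71 and 0.75 in morulae and 1.55, 1.28, 1.47 and 1.39 in blastocysts. The last 3 stages did not overlap, and both kinds of morula array lay close together. Slc2a1 (GLUT1) was at -3.16, -3.42, -3.19 and -4.86 in unfertilized eggs and -3.33, -3.07, -3.49 and -3.52 in fertilized eggs, and fell to -4.36, -5.44, -5.17 and -3.49 at the 2-cell, -4.73, -5.80, -5.55 and -5.17 at the 4-cell and -5.43, -5.82, -5.56 and -5.58 at the 8-cell stage. It read -3.92, -3.78, -4.95 and -4.87 in morulae and -3.48, -3.83, -4.12 and -4.38 in blastocysts. The 8-cell arrays overlapped neither the fertilized eggs nor the morulae, and 2-cell embryo 4 lay among the fertilized eggs. The fall to the 2-cell stage was 2.40-fold (log2 -1.26, adjusted p = 0.0147) and kept its call in 6 of the 8 fits that left out 1 array.

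Blastocysts exceeded 8-cell embryos 3.12-fold in Slc2a1 (log2 1.64 ± 0.38, adjusted p = 0.0106) and 2.05-fold in Slc2a3 (log2 1.03 ± 0.22, adjusted p = 0.00582). Both stages lie in subset 2, and these were the 2 carriers called, where 3.69% of probes were and 3.33% were higher. Without blastocyst 1 the adjusted p of Slc2a1 was 0.0607. Within subset 2 alone, 9 carriers were called beside 16.8% of probes. Beyond the glucose carriers, the glutamate carrier Slc1a3, the zinc carrier Slc30a9, the choline carrier Slc44a1 and Slc7a10 were higher and Slc18a1, Slc12a8 and Slc28a2 lower in blastocysts. A further Slc44a1 probe showed a larger difference (log2 2.92, adjusted p = 1.86e-05) than the one of highest mean level (0.90, adjusted p = 0.0840). The sugar carrier Slc2a12 (GLUT12) did not pass the F test.

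Slc29a1 (ENT1, an equilibrative nucleoside transporter) was at -2.82, -2.46, -2.66 and -1.52 in unfertilized eggs, -3.16, -3.09, -2.65 and -3.15 in fertilized eggs, -2.72, -3.78, -3.37 and -3.02 at the 2-cell and -2.44, -2.68, -3.08 and -2.36 at the 4-cell stage. It read -1.66, -1.19, -1.28 and -1.13 at the 8-cell stage, -1.98, -1.86, -1.71 and -1.84 in morulae and -1.13, -1.04, -0.88 and -1.21 in blastocysts. All 8-cell, morula and blastocyst arrays lay above every fertilized egg, 2-cell and 4-cell array. The rise from unfertilized egg to blastocyst was 2.46-fold (adjusted p = 0.000189), and 0.88 on the log2 scale with the subset as a block (adjusted p = 0.0297). Slc28a3 (CNT3, a broad nucleoside carrier) passed the F test with an adjusted p of 0.0445, and its further probe was highest in blastocysts (2.08 above unfertilized eggs, adjusted p = 0.00039).

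From morula to blastocyst no carrier was called by limma on its probe of highest mean in the fit of all 28 stage arrays, where 1.33% of probes were. A further Slc44a1 probe did pass there and was higher in blastocysts (log2 2.11, adjusted p = 0.00259). The mean of the Slc44a1 probes passed too (log2 1.295, adjusted p = 0.00357). An unadjusted p under 0.05 was found for 8 of the 42 carriers and for 3337 of all 22575 probes. Within subset 2, which holds 2 morulae, the called carriers were Slc1a3, Slc30a9 and Slc2a3, all higher in blastocysts, beside 2.36% of probes. Morulae were lower than 8-cell embryos in Slc18a1, Slc28a2, Slc48a1, Slc4a8 and Slc6a15, where 4.88% of probes were called and 1.64% were lower. The call held in 3 of the 8 fits without 1 array for Slc6a15 and in 2 of 8 for the other 4. No carrier was called with the subset as a block (0.0% of probes) or within subset 2 (0.00443%), while 3 and 10 had an unadjusted p under 0.05, beside 1601 and 3848 of all 22575 probes.

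Over the whole span, from unfertilized egg to blastocyst, 7 carriers rose and 9 fell, and 29.5% of probes were called (15.8% rising and 13.7% falling). Slco3a1, Slc7a10, Slc6a15, Slc39a10, Slc44a2, Slc9a2 and Slc18a1 fell both in the fit of all 28 stage arrays and with the subset as a block (21.0% of probes called). Of the 7 that rose, Slc2a3, Slc29a1 and Slc44a1 passed with the block. Subset 2 holds 1 unfertilized egg array, so differences within it are given as values with no test, and that of Slc2a3 was 1.10. The calls of Slc28a2, Slc38a1, Slc39a9 and Slc6a13 held in 2 and that of Slc44a1 in 3 of the 8 fits without 1 array. Against that 1 egg array the differences of Slc28a2, Slc38a1, Slc6a13 and Slc39a9 were -0.08, -0.60, -0.16 and 0.03. Further Slc38a1 probes differed by -0.54 and 0.24 between blastocysts and unfertilized eggs in the fit of all 28 stage arrays (adjusted p = 0.208 and 0.865). Of 15 genes picked by symbol as other membrane transport genes (Abc, Atp2 and Clcn genes), 2 rose from unfertilized egg to blastocyst, Abcd4 by 2.12 and Abca3 by 1.41. Another 2 fell, Abcc3 by 2.21 and Atp2b1 by 1.48.

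For the 15 carriers that did not pass the F test, the range between stage means ran from 0.20 for Slc35f1 and 0.29 for Slc38a7 (SNAT7, a glutamine carrier of the lysosome) to 1.26 for Slc39a9, 1.27 for Slc16a3 and 2.18 for Slc1a3. The others were Slc10a4l, Slc12a1 (NKCC2, sodium, potassium and chloride), Slc16a8 (MCT3, lactate), Slc19a1 (folate), Slc2a12, Slc30a9, Slc39a8, Slc43a2 (LAT4, branched-chain amino acids), Slc44a1 and Slc7a2 (CAT2, cationic amino acids). Slc1a3 spread widely within stages, from -4.55 to 0.15 in 2-cell embryos, but was tight in 8-cell embryos at -0.49, -0.71, -0.79 and -0.66 and in blastocysts at 0.39, 0.73, 0.47 and 0.10. Those 8-cell and blastocyst arrays did not overlap. Slc30a9 and Slc44a1 passed the F test with the subset as a block (adjusted p = 0.0235 and 0.0302).

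The treatment set sampled the 1-cell and 2-cell embryo by the hour, a window in which inhibitors are used to ask which RNAs depend on transcription, replication or translation. Its values were quantile normalized, because array medians spanned 0.53. In 5 arrays the median or the number of probes at the upper limit lay apart from the rest (43h-Control 1, 32h-AM 3, 54h-AM 3, 32h-AC 3 and 32h-DMSO 3), and 43h-AC 1 had the lowest mean correlation with its group, 0.760. In control embryos no carrier was called from 21 to 32 h (0.315% of probes) or from 32 to 43 h (3.6% of probes). An unadjusted p under 0.05 was found for 5 and 3 carriers, beside 1918 and 2783 of all 22575 probes. From 43 to 54 h, where 4.08% of probes were called, Slc2a1 fell and Slc29a1 rose.

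Slc2a1 was at -3.95, -3.94 and -4.25 in control embryos at 21 h, -3.83, -3.55 and -4.22 at 32 h, -5.12, -4.64 and -4.48 at 43 h, and the 54 h arrays read -6.04, -6.24 and -6.31. The 54 h control arrays lay below all other control arrays, and the fall from 43 h was 2.74-fold (log2 -1.45 ± 0.29, adjusted p = 0.00487; as deposited -1.14, adjusted p = 0.137). With AM it was at -3.31, -3.45 and -3.95 at 32 h, -4.45, -3.56 and -4.20 at 43 h, and the 54 h arrays read -4.68, -4.47 and -4.63. At 54 h the AM and control arrays did not overlap, and AM embryos were 3.05-fold higher (log2 1.61 ± 0.29, adjusted p = 0.000647). The size rested on the normalization: with the values as deposited the difference was 1.06 (adjusted p = 0.210), with each array centred on its median 1.04 (adjusted p = 0.164). It was 1.62 without the 5 arrays that lay apart (adjusted p = 0.00597).

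Slc29a1 differed in the opposite direction. Control embryos had -3.55, -3.17 and -3.00 at 21 h, -3.46, -3.21 and -3.33 at 32 h, -3.31, -2.92 and -3.27 at 43 h, and the 54 h arrays read -1.61, -2.13 and -2.01. AM embryos had -3.36, -3.49 and -3.56 at 32 h, -2.85, -3.19 and -3.24 at 43 h, and the 54 h arrays read -3.34, -3.31 and -3.49. The control rise at 54 h, 2.37-fold (adjusted p = 0.0382), was not seen in the AM arrays, which were 2.76-fold below the controls (log2 -1.46 ± 0.35, adjusted p = 0.00838). The control rise lost its call whenever any 1 of its 6 arrays was left out (adjusted p from 0.0516 to 0.138), and the AM difference lost it without 54h-Control 1 (adjusted p = 0.0505).

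Slc10a4l, a gene of the Slc10 family, was in control embryos at 0.35, 0.17 and 0.28 at 21 h, 0.64, 0.68 and 0.64 at 32 h, 1.75, 1.92 and 1.49 at 43 h, and the 54 h arrays read 2.46, 2.60 and 2.53, with no overlap between times, although no step between neighbouring times was called. In AM embryos it was at 1.02, 0.28 and 0.48 at 32 h, 1.94, 0.39 and 1.06 at 43 h, and the 54 h arrays read 1.11, 0.83 and 0.69. The 54 h difference was 3.14-fold (log2 -1.65 ± 0.37, adjusted p = 0.0053), kept its call without any 1 array, and was -1.56 without the 5 arrays that lay apart (adjusted p = 0.0563). In the stage set Slc10a4l did not pass the F test, and its 2-cell arrays read 0.11, 0.71, 0.60 and 1.26.

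**Figure D4:**
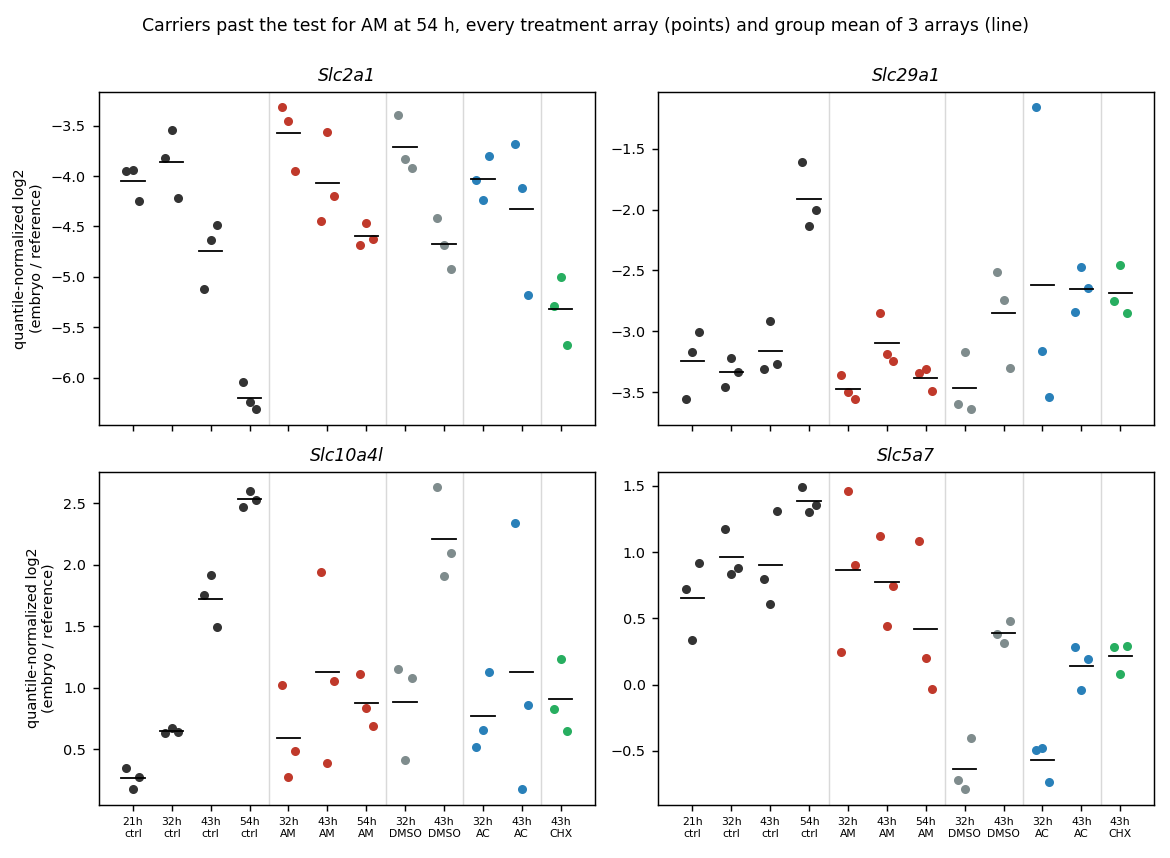
Quantile-normalized log2 embryo over reference of Slc2a1, Slc29a1, Slc10a4l and Slc5a7 on every treatment array, by group along the axis (hours and treatment), with a line for the mean of 3 arrays. At 54 h the control and AM arrays do not overlap in any of the 4 panels, and in Slc5a7 the DMSO, AC and CHX arrays lie below the controls of the same hour.

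Slc5a7 was at 1.49, 1.30 and 1.35 in control embryos at 54 h and at 1.08, 0.20 and -0.03 with AM, without overlap. The difference was 1.95-fold (log2 -0.96 ± 0.26, adjusted p = 0.0228) and kept its call in 1 of the 6 fits that left out 1 array, the highest adjusted p being 0.176 without 54h-AM 3. In all, 4 of 42 carriers differed between AM and control embryos at 54 h, 1 higher and 3 lower, where 6.45% of probes did (2.12% higher and 4.34% lower). The groups of 26.3% of probes do not overlap there, as those of these 4 carriers do not. The plot of all 42 differences shows their 95% intervals. The next smallest adjusted p belonged to the heme carrier Slc48a1 (log2 1.09, 95% interval 0.39 to 1.80, adjusted p = 0.0535), and the lactate carrier Slc16a3 was at 0.78 (interval 0.23 to 1.33, adjusted p = 0.0812). Slc38a2 differed by 1.12 (interval -0.03 to 2.27) and Slc38a1 by 0.51 (interval -0.13 to 1.14), and neither passed the test. Slc19a3 read 6.57 or more after quantile normalization on every control and AM array at 54 h, where the upper limit before it was 6.64. Each 54 h control array and 54h-AM 1 and 2 held 1 carrier value at a limit before normalization. A difference above the upper limit could not be seen, so the missing call of Slc19a3 is not read as a lack of response. Some of its control, AM and CHX arrays at 43 h stood equally close to the limit.

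**Figure D5:**
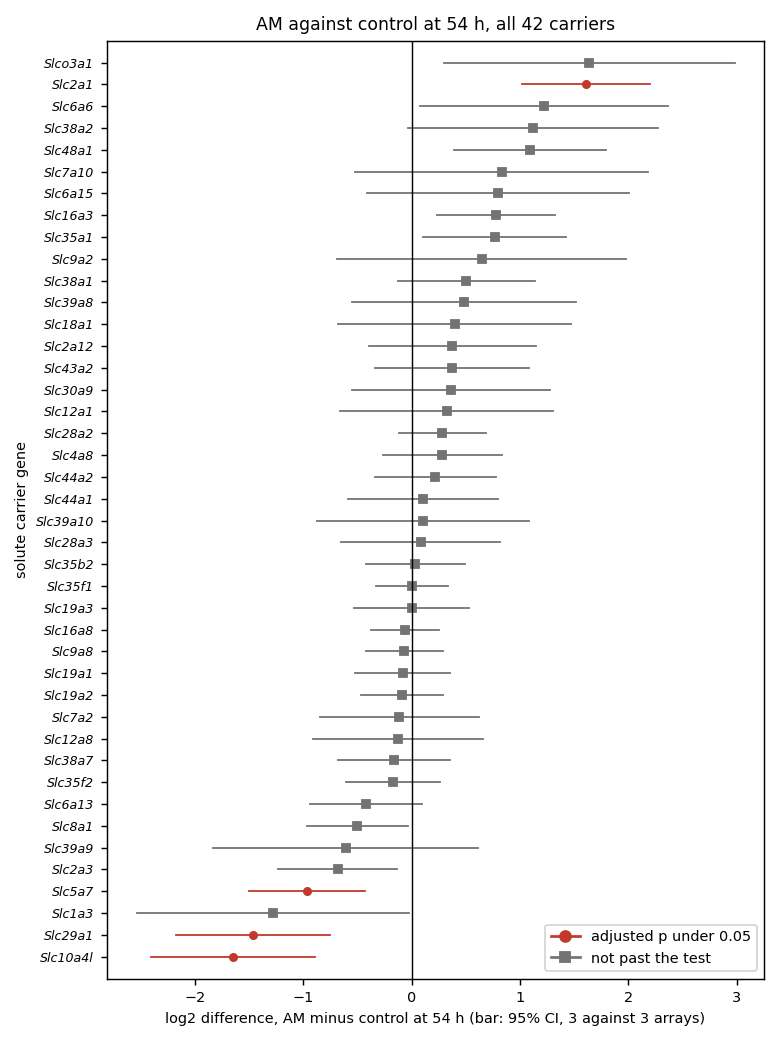
Log2 difference of AM minus control embryos at 54 h for each of the 42 carriers, with a bar for the 95% confidence interval of the limma fit (3 against 3 arrays). The 4 carriers past adjusted p 0.05 are Slc2a1 above 0 and Slc5a7, Slc29a1 and Slc10a4l below 0.

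Before 54 h no carrier and no probe was called for AM by limma (0.0% at 32 h and at 43 h). An unadjusted p under 0.05 was found for 0 carriers at 32 h and 2 at 43 h, beside 475 and 982 of all 22575 probes. Those 2 were Slc28a2 (log2 0.56, 95% interval 0.16 to 0.96) and Slc2a1 (0.68, interval 0.09 to 1.27). The AM response itself was not called as different between 54 h and 43 h for any carrier (0.0797% of probes). An unadjusted p under 0.05 was found for 4 carriers, beside 2264 of all 22575 probes. Slc29a1 at -1.53 (adjusted p = 0.229) and Slc2a1 at 0.93 (adjusted p = 0.428) were among these carriers.

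The 9 maternal carriers, as classed in the stage set, were lower at 54 h than at 43 h in 8 of 9 cases in control embryos (median log2 -1.45), where Slc2a1 alone passed the test. For Slco3a1 the 43 h controls read 2.15, 2.85 and 2.67 and the 54 h controls 0.83, 0.77 and 0.67, against 1.47, 2.75 and 2.97 in the AM embryos of 54 h. AM and control arrays did not overlap there, and the difference of 1.64 (interval 0.30 to 2.98) had an adjusted p of 0.151. All 9 maternal carriers had a positive AM difference at 54 h, from 0.10 to 1.64, and 1 of the 9 passed the test. Their median was 0.80, against 0.11 for the 42 carriers and 0.02 for all probes. The comparisons with 43 h and with AM share the 54 h control arrays. The mean of the 5 oocyte genes on the same arrays lay between 3.41 and 3.63 in 54 h controls and between 3.04 and 4.15 with AM, and its part in the result was not tested.

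Within AM embryos alone the 9 maternal carriers differed by -2.27 to -0.02 between 54 h and 32 h, with a median of -1.61. The difference of -0.02 is too small to be read as a fall. The share of all probes that were lower is not given here, so the common sign is not read as a result about the carriers. In this comparison 5 carriers rose and 5 fell, where 9.6% and 9.39% of probes did. As deposited 5 rose and 2 fell, and with arrays centred on their median, which moved the median of all probes from 0.05 to 0.16, 7 rose and 2 fell. The shares of all probes called under these other scalings are not given here, so the changed counts are not read as a result about the carriers. The falls called under all 3 scalings were those of Slc9a2 and Slc39a10. The 5 that fell were maternal: Slc9a2 (4.83-fold), Slc7a10 (4.22-fold), Slc18a1 (3.34-fold), Slc39a10 (3.05-fold) and Slc2a1 (2.03-fold). The 5 that rose were Slc38a2 (3.47-fold), Slc16a3 (3.17-fold), Slc12a8 (2.34-fold), Slc28a2 (1.70-fold) and Slc19a2 (1.51-fold). Slc38a2 read -6.61, -6.62 and -5.97 at 32 h with AM, close to the lower limit of the scale, so the size of its rise is uncertain. Slc16a3 read -2.08, -2.44 and -1.98 at 32 h and -0.37, -0.80 and -0.34 at 54 h with AM, without overlap (adjusted p = 0.000102). The controls of 32 h read -1.76, -1.93 and -1.96 and those of 54 h -0.90, -1.74 and -1.22. Slc16a3 kept its call in all 6 fits that left out 1 array, Slc28a2 in 5, Slc2a1 in 4, and the other 7 in 1 to 3. Without the 5 arrays that lay apart 4 of the 10 remained called: Slc16a3, Slc12a8, Slc28a2 and Slc2a1.

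AC was set against DMSO of the same hour. No carrier was called by limma at 32 h (0.0% of probes) or at 43 h (0.204% of probes). An unadjusted p under 0.05 was found for 2 and 5 carriers, beside 424 and 2844 of all 22575 probes. The 43 h AC arrays disagreed with each other. In Slco3a1 they read 4.55, 0.38 and 2.15, where DMSO embryos had 2.19, 2.31 and 2.74, and in Slc18a1 they read 3.49, 0.42 and 0.82 against 2.34, 2.24 and 3.00. Array 1 lay above and array 2 below every DMSO array in both genes. The smallest adjusted p was that of Slc38a1 (SNAT1), with AC at -0.01, 0.97 and 0.72 and DMSO at -1.48, 0.00 and 0.01 (log2 1.05, interval 0.42 to 1.68, adjusted p = 0.130). Slc10a4l was at 2.34, 0.18 and 0.86 with AC and at 2.63, 1.90 and 2.10 with DMSO (log2 -1.08, interval -1.84 to -0.33, adjusted p = 0.197).

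Without 43h-AC 1 the comparison called 6 carriers beside 12.7% of probes: Slc38a2 (log2 2.29), Slc30a9 (1.58) and Slc38a1 (1.34) were higher and Slc18a1 (-1.91), Slc9a2 (-1.81) and Slc10a4l (-1.69) lower with AC. Without any 1 of the other 5 arrays it called no carrier and at most 0.288% of probes. The AC result at 43 h thus turned on array 1. In Slc38a2 the DMSO arrays of 43 h read -6.36, -5.84 and -6.51, near the lower limit of the scale, so the size of its difference is uncertain.

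CHX at 43 h called no carrier against control by limma, where 2.25% of probes were called. An unadjusted p under 0.05 was found for 6 carriers, beside 3189 of all 22575 probes. Slc44a2 came closest, at 0.68, 0.50 and 0.12 with CHX against -0.79, 0.01 and -0.75, with no overlap (log2 0.94, interval 0.39 to 1.50, adjusted p = 0.0637), and passed when 43h-Control 2 was left out (1.20, adjusted p = 0.0431). Slc35f1 differed by 0.47 (interval 0.14 to 0.80, adjusted p = 0.140). Slc10a4l was at 0.83, 1.24 and 0.65 with CHX against 1.75, 1.92 and 1.49, also without overlap (log2 -0.82, interval -1.57 to -0.06, adjusted p = 0.308). Slc2a1 was at -5.28, -5.00 and -5.67 with CHX, a difference of -0.57 (interval -1.17 to 0.02), where the AM difference at 43 h was 0.68 (interval 0.09 to 1.27), both against the same 43 h controls.

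Slc5a7 was the carrier called for the solvent alone. DMSO embryos at 32 h had -0.72, -0.79 and -0.41 and control embryos 1.18, 0.84 and 0.88, a 3.03-fold difference (log2 -1.60 ± 0.26, adjusted p = 0.00136) in a comparison that called 0.656% of probes. The call was lost with the values as deposited (log2 -1.37, adjusted p = 0.0712) and in a fit of these 2 groups alone (adjusted p = 0.0508). AC embryos at 32 h had -0.49, -0.48 and -0.74, next to the DMSO values. At 43 h the values were 0.80, 0.61 and 1.31 in controls, 0.38, 0.31 and 0.48 with DMSO, 0.28, -0.04 and 0.19 with AC and 0.28, 0.08 and 0.29 with CHX. The control arrays lay above all 9 others, but neither DMSO (log2 -0.51, adjusted p = 0.709) nor CHX (-0.69, adjusted p = 0.201) passed against them. No carrier and no probe was called by limma for DMSO against control at 43 h (0.0%), with 1 carrier at an unadjusted p under 0.05, beside 1655 of all 22575 probes. Whether DMSO arrays differed from control arrays in their handling was not tested.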

How the data were processed

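The deposited values are log10 ratios of the 2 channels per array, read so from the values (limits at -2 and 2, medians near 0); no source used here states the authors' background correction, normalization or dye orientation. Each value was multiplied by -3.32 to give log2 embryo over reference. Of the probes, 4262 have 1 gene symbol in the platform annotation, 6822 several and 11491 none, and members were taken from the first. All 42 members matched RefSeq by gene identifier.

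The 28 stage arrays were used as deposited (array medians spanned 0.24) and the 36 treatment arrays were quantile normalized, because their medians spanned more than 0.5. Each set was fitted separately over all 22575 probes with limma 3.58.1 in R 4.3.3 (lmFit, eBayes), with Benjamini-Hochberg adjustment and a threshold of 0.05. Tables and plots used Python 3.11.15, pandas 2.3.3 and matplotlib 3.10.9, and the fits were tested on simulated data. The members and lists were chosen with earlier results of these data known. Named were the members past the threshold, at most 8 each way in a comparison, the 12 with the smallest p in the F test, and carriers of known role in the embryo; values of every array were planned for the 10 widest ranges and for members named under AM, AC or CHX, and others are given for context. Alternatives were quantile normalization (or, for the treatment set, the values as deposited), median centring, the replicate number or the array subset as a block, fits within a subset or of the compared groups alone, leaving out probes at a limit or 0, the mean of a gene's probes, and leaving out each array. The comparison of morulae with 4-cell embryos and the fit without 5 arrays were chosen after seeing the data. The labels do not say that replicate numbers mark a shared source, and in no comparison made did every same-numbered pair of arrays deviate together (correlation over 0.1), so the numbers were not used as pairs. The number of arrays limits the precision.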

Additional observations from a re-analysis of the deposited data

Results flagged for a closer look

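In 13 carriers, the 10 with the widest range of stage means past the F test and Slc2a1, Slc29a1 and Slc10a4l, 91 groups of 4 arrays were searched for an array farther from its nearest neighbour than Dixon's 95% criterion allows, and 9 groups held one. Chance alone gives about 1 in 20. Unfertilized egg 4, the egg array of subset 2, accounted for 4 of the 9. It read 3.74 in Slc28a2, where the other 3 eggs lay between 1.86 and 2.06, and 4.06 in Slc7a10, where they lay between 5.93 and 6.08. It read -0.13 in Slc44a2 (others 1.77 to 1.93) and -4.86 in Slc2a1 (others -3.42 to -3.16).

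The other 5 arrays differed from gene to gene. Fertilized egg 1 read 0.35 in Slc35a1, below the 0.74 to 0.77 of its group, and fertilized egg 3 read -2.65 in Slc29a1, above the -3.16 to -3.09 of its group. In 2-cell embryo 4 Slc12a8 was at 0.17, against 1.06 to 1.14. In 8-cell embryo 2 Slc5a7 was at 3.27, against 3.69 to 3.70, a small difference beside a tight group. In morula 1 Slc10a4l was at -0.29, against 0.41 to 0.56.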

How the results depend on the processing

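The values here are numbers of the 42 carriers called unless a gene is named. A number in brackets after such a count is that of all probes called in the same fit. Where no number of probes stands beside a count or a range, it is not read as a result about the carriers. Of 78 calls of a named gene, 75 were kept with the replicate block (replicate numbers as a block, although 8 of 28 stage and 22 of 36 treatment arrays correlated best with their own number, and every same-numbered correlation was over 0.1 in 0 of 21 and 9 of 45 pairs of groups), 63 with arrays centred on the median, 57 with the compared groups alone and 69 with a gene's probes averaged. After quantile normalization 52 of 61 stage calls were kept, and 38 of 71 with the subset as a block, 21 of 27 within subset 1 and 10 of 23 within subset 2. Without probes at a limit or 0, all 73 were kept. In the treatment set 8 of 17 were kept as deposited, and 8 of 17 without the 5 arrays that lay apart, an alternative chosen after seeing the data. The cause of a changed count was not tested. Fertilized against unfertilized eggs gave 0 (109) with the replicate block and 0 (0) with the compared groups alone, which gave 7 (3218) from fertilized egg to 2-cell embryo. From 2-cell to 4-cell embryo the subset block gave 9 (4154) and subset 1 gave 7 (2967), and from 4-cell to 8-cell embryo the block gave 3 (578). From 8-cell embryo to morula the number was 2 (1143) when centred, 0 (0) with the compared groups alone and 8 without probes at a limit (1312 of the 20312 left). It was 3 with the mean of probes, 0 (0) with the block and 0 (1) within subset 2. From morula to blastocyst it was 2 (279) with the compared groups alone, 1 with the mean of probes and 3 (533) within subset 2. From 8-cell embryo to blastocyst it was 10 (4287), 4 (1209) and 9 (3786) with the compared groups alone, the block and subset 2, where the fit of all stage arrays called 832 probes. Morulae against 4-cell embryos gave 4 (1171) within subset 1. Control 43 against 32 h gave 2 with the compared groups alone. Control 54 against 43 h gave 0 as deposited, 0 when centred, 8 with the compared groups alone and 1 without the 5 arrays. AM at 54 h gave 2 as deposited and 2 without the 5 arrays, and AM 54 against 32 h gave 4 without them, 7 as deposited and 12 with the replicate block. DMSO at 32 h gave 0 as deposited and 0 with the compared groups alone. The late class held 6 carriers after quantile normalization. The sign turned with the subset block from 4-cell to 8-cell embryo in Slc16a3 (-0.28) and Slc38a2 (0.091), and from unfertilized egg to blastocyst in Slc28a2 (-0.18) and Slc38a1 (-0.19). Within subset 2, against 1 egg array, it turned in that last comparison in Slc28a2 (-0.076), Slc38a1 (-0.60), Slc39a9 (0.030) and Slc6a13 (-0.16). Without 1 array, 444 of 590 gene calls were kept. The F test then gave 23 to 33, fertilized against unfertilized eggs 0 to 2, and the steps to the 2-cell, 4-cell, 8-cell, morula and blastocyst stages 11 to 16, 2 to 7, 18 to 20, 0 to 12 and 0 to 2. Blastocysts against 8-cell embryos gave 1 to 2 and against unfertilized eggs 10 to 17. Control 54 against 43 h gave 1 in each, AM at 54 h 2 to 5, AM 54 against 32 h 2 to 12, AC at 43 h 0 to 6, CHX 0 to 1 and DMSO at 32 h 1 in each. The other treatment comparisons gave 0 in each. Of all values 1.47% stand at a limit, where a difference is only a bound, and brightness over background is unknown.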

Other observations

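The 15 genes picked by symbol as other membrane transport genes served as a list beside the carriers. They were Abc, Atp2 and Clcn genes, with no aquaporin among them. A symbol alone does not show that each of them, such as Abce1 or Abcf1, is a membrane transporter. In the F test over the stages 8 of the 15 passed, against 27 of 42 carriers and 64.3% of all probes. From the fertilized egg to the 2-cell embryo 2 rose and 2 fell, where 14.5% and 12.9% of probes did, with a median difference of 0.20. From the 4-cell to the 8-cell embryo 1 rose and 3 fell, where 20.9% and 20.2% of probes did, with a median of -0.32. From the 8-cell embryo to the blastocyst 2 rose, where 3.33% of probes did. With AM at 54 h 1 of the 15 differed from control embryos, the calcium pump Atp2b3, which was lower (log2 -0.87), where 4.34% of probes were. Both lists were measured on the same arrays, and the difference between them was not tested.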
